A study of Mus musculus with 9 samples.

Results

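The open chromatin of mouse large intestinal epithelium was compared between 2 ATAC-seq libraries labelled DKO and 2 labelled Wt. ATAC-seq uses a transposase to cut DNA that is not packed on nucleosomes, so that stretches with many cuts are listed as peaks. All peaks on chromosomes 1 to 19 and X were taken, 166158 in all, of the 171347 ATAC and ChIP peaks listed over all chromosomes in the series. The 4 ATAC libraries are part of 9 samples, the others being 4 RNA-seq libraries and 1 Cdx2 ChIP-seq library from Wt cells.

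Both groups carried Cdx1-/- and Cdx2f/f alleles, the second being a Cdx2 gene that a recombinase can cut, and both were labelled as tamoxifen treated, for 6 days by the protocol. The DKO strain was written Cdx1-/-Cdx2f/f vill (+) and the Wt strain Cdx1-/-Cdx2f/f vill (-), so that the label Cdx1-/- also applies to the libraries called Wt. The labels do not say what vill stands for or which promoter drove recombination. Cells had been enriched from fresh colon with EDTA, without a sort, so other cell types of the gut wall could remain. Nothing in the labels says that the 2 libraries of a group came from separate mice, so the spread between them may be technical. In bulk samples, fewer cells of a type and a smaller signal per cell cannot be told apart. The deposited peak lists hold no read counts. A difference between groups was therefore set against the spread between libraries with an exact two-sided permutation test, which with 2 libraries against 2 cannot go below p = 0.333.

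Cdx1 and Cdx2 are homeobox transcription factors of the caudal family, which bind AT-rich DNA and set intestinal identity during development and in the adult gut. Cdx2 is known to keep intestinal enhancers accessible together with partners such as Hnf4a, and its loss is known to bring up stomach genes in gut epithelium. In most tissues the strongest ATAC peaks lie at the starts of widely expressed genes, while enhancers give many weaker peaks that differ between cell types.

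The 200 bases before the starts of 6 genes with a peak in both Wt lists and in neither DKO list are shown first, because the results below return to them. They belong to Cdx2 itself; to Trim31, a ubiquitin ligase named in the title of the series as a suppressor of the inflammasome sensor NLRP3; to Hnf4a, a nuclear receptor of gut and liver epithelium; to Slc26a3, the chloride and bicarbonate exchanger of the colon; to Fcgbp, a mucus protein of goblet cells; and to Fos, a subunit of the AP-1 factor. Eef1a1, a translation elongation factor with a peak in all 4 lists, and Scd3, a stearoyl-CoA desaturase with a peak in both DKO lists alone, were added after their values were seen, as a contrast. Sequences and positions are from RefSeq on GRCm38.p6, which is the mm10 build that the submitters' processing notes name. Each sequence reads 5′ to 3′ towards the gene, and capitals mark CNATAAA, a motif that caudal factors can bind, on either strand.
Cdx2, chr5:147307250-147307449, minus strand: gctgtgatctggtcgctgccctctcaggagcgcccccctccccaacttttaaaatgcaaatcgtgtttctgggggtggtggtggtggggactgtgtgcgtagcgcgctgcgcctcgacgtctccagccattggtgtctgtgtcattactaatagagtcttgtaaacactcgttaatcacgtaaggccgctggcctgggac
Trim31, chr17:36897930-36898129, plus strand: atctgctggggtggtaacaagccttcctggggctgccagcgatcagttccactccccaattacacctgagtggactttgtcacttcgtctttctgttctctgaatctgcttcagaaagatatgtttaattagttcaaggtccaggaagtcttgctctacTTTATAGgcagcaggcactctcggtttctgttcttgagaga
Hnf4a, chr2:163506657-163506856, plus strand: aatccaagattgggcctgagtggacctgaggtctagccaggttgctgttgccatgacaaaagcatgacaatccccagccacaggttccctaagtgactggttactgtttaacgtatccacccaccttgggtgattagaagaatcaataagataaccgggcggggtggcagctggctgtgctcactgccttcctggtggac
Slc26a3, chr12:31438019-31438218, plus strand: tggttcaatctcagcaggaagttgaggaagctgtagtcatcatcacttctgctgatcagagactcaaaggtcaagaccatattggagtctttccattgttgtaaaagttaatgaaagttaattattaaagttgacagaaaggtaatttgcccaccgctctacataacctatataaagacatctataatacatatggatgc
Fcgbp, chr7:28071036-28071235, plus strand: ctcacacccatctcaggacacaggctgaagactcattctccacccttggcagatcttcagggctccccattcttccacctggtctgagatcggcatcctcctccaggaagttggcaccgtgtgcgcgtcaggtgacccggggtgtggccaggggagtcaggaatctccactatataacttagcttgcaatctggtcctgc
Fos, chr12:85473690-85473889, plus strand: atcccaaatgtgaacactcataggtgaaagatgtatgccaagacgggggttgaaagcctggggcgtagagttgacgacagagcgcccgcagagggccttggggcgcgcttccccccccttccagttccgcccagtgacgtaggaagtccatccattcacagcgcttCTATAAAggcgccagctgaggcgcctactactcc
Eef1a1, chr9:78481725-78481924, minus strand: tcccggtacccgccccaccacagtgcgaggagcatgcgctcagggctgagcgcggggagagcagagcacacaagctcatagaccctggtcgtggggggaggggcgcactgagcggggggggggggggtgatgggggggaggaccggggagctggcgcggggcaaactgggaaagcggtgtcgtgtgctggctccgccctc
Scd3, chr19:44203088-44203287, plus strand: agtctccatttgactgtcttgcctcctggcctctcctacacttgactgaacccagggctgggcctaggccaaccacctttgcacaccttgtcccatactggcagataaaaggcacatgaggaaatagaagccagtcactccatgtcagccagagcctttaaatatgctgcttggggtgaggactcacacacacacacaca

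The capital letters occur once before Trim31 and once before Fos, where CTATAAA also contains the letters of a TATA box. The Cdx2 ChIP-seq list has a peak over the stretches before Hnf4a and Slc26a3, which hold no CNATAAA, and none over those before Trim31 and Fos. A match is a description of letters and does not show a bound site. The Eef1a1 stretch was 72.0% G and C with 15 CpG dinucleotides, the Scd3 stretch 52.0% with 0, and the Slc26a3 stretch 36.5% with 1.

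The DKO libraries held fewer and wider peaks than the Wt libraries, with lower fold enrichment and -log10 q. DKO 1 listed 40101 peaks, DKO 2 listed 23961, Wt 1 listed 48159 and Wt 2 listed 53937. Both DKO values lay below both Wt values, and the DKO libraries differed from each other by more than the Wt libraries did. The means were 32031 ± 11412.7 peaks in DKO and 51048 ± 4085.66 in Wt (SD, n = 2 each, exact permutation p = 0.333). The peaks covered 8.56 Mb in DKO 1, 6.85 Mb in DKO 2, 10.8 Mb in Wt 1 and 12.5 Mb in Wt 2.

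Fold enrichment is the authors' value for each peak, the height of its summit over the local background. Its median was 3.90 in DKO 1, 3.77 in DKO 2, 4.95 in Wt 1 and 4.88 in Wt 2. The 2 values of each group were within a narrow range and the groups did not overlap (3.84 ± 0.0953 against 4.91 ± 0.0469, SD, n = 2 each, exact permutation p = 0.333). The median of -log10 q, the caller's adjusted significance, was 3.20 and 3.39 in DKO 1 and DKO 2 and 4.84 and 5.16 in Wt 1 and Wt 2. A value of at least 5 was reached by 15.7% of peaks in DKO 1, 17.4% in DKO 2, 48.5% in Wt 1 and 51.6% in Wt 2.

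Median peak width was 181 bp in DKO 1, 228 bp in DKO 2, 151 bp in Wt 1 and 153 bp in Wt 2. The difference turned when the same number of peaks was taken: among the 20000 strongest peaks of each list, the mean of the medians was 215.5 bp in DKO and 310.5 bp in Wt. The narrowest peak listed was 130 bp in DKO 1, 154 bp in DKO 2, 58 bp in Wt 1 and 57 bp in Wt 2, so the lowest width the caller wrote also differed between the groups.

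**Figure D1:**
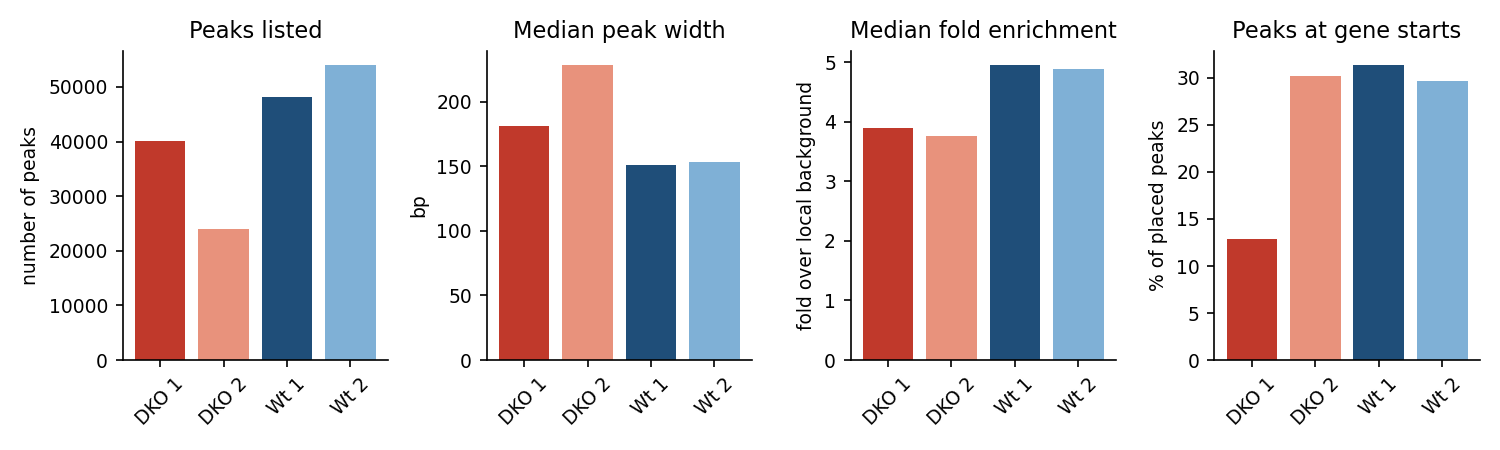
Bars give, for each of the 4 ATAC libraries, the number of peaks, the median peak width in bp, the median fold enrichment over local background and the percent of placed peaks within 1000 bp of a gene start. The DKO libraries lie below the Wt libraries in number and fold enrichment and above them in width, while only DKO 1, at 12.9%, lies apart in the share at gene starts.

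Fold enrichment rests on a background that may differ between the libraries. If the caller adds 1 to the summit and to the background, whole fragments over 1 background give fold values in equal steps. Of the 20 commonest fold values of each list, 11 in DKO 1, 11 in DKO 2, 9 in Wt 1 and 11 in Wt 2 lay on such a step, which held 26.7%, 18.4%, 10.6% and 6.70% of all peaks; the others lay off it. On that assumed formula the step corresponds to a background of 1.96 fragments per base in DKO 1, 2.28 in DKO 2, 0.735 in Wt 1 and 0.854 in Wt 2. A summit at the median fold would then hold 10.6 fragments in DKO 1, 11.4 in DKO 2, 7.58 in Wt 1 and 8.05 in Wt 2. Those heights take the same background for peaks off the step, which was not tested. Whether the lower fold enrichment in DKO goes with fewer fragments at a summit was not tested either. Per kb of the narrowest width listed, the background was 15.1 in DKO 1 and 14.8 in DKO 2. In Wt 1 and Wt 2 it was 12.7 and 15.0, so on that scale the groups overlapped. These values are a rough description and give no depth, which is unknown here.

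A gene start counts below as open in a library where a peak overlaps the 1000 bp on either side of a RefSeq start. The table of starts covers 26794 genes, with no chromosome 18 genes among them, and peaks on chromosome 18 were left out of shares at gene starts. Of the peaks placed, 12.9% lay at gene starts in DKO 1, 30.2% in DKO 2, 31.3% in Wt 1 and 29.7% in Wt 2. DKO 2 lay inside the Wt range and DKO 1 far below it. The means, 21.6% ± 12.2 in DKO and 30.5% ± 1.14 in Wt (SD, n = 2 each), overlapped between libraries (exact permutation p = 0.667). Without DKO 1 the difference of -8.97 percentage points became -0.314. Peaks outside gene bodies and starts made up 38.0% in DKO 1, 27.7% in DKO 2, 25.2% in Wt 1 and 25.1% in Wt 2. The median distance to a start was 24.3 kb, 13.6 kb, 10.4 kb and 10.5 kb in that order.

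The strong peaks set DKO 1 apart more than the weak ones. Of the 500 peaks with the highest -log10 q, 3.92% lay at gene starts in DKO 1, 55.5% in DKO 2, 78.2% in Wt 1 and 77.4% in Wt 2. In both Wt libraries peaks at starts were stronger than those elsewhere, with median fold enrichments of 5.79 against 4.68 in Wt 1 and 5.72 against 4.74 in Wt 2. In DKO 2 the values were 3.92 at starts and 3.70 elsewhere, and in DKO 1 they were 3.84 at starts and 3.91 elsewhere. Chromosome X held 3.15% of peaks in DKO 1, 3.41% in DKO 2, 1.84% in Wt 1 and 1.74% in Wt 2, with no overlap between the groups (exact permutation p = 0.333).

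Replicates shared many peaks in Wt and few in DKO. An overlap of at least 1 bp with the other Wt list was found for 73.3% of Wt 1 peaks and 64.1% of Wt 2 peaks, and with the other DKO list for 25.8% of DKO 1 peaks and 41.8% of DKO 2 peaks. The bases shared, as a share of all bases covered by either list (the Jaccard index), came to 0.548 for the Wt pair and 0.160 for the DKO pair. Between groups the index was 0.162 and 0.161 for DKO 2 with Wt 1 and Wt 2, and 0.0577 and 0.0588 for DKO 1. DKO 2 thus shared as large a share of bases with each Wt list as with DKO 1.

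Among the strongest 500 peaks, every Wt peak lay in the other Wt list. DKO 2 had 90.6% of its strongest 500 in DKO 1, 79.8% in Wt 1 and 82.8% in Wt 2. DKO 1 had 80.4% in DKO 2 but 13.8% in Wt 1 and 15.4% in Wt 2. The strongest DKO 1 peaks were therefore mostly seen again in DKO 2 and mostly away from starts and absent from the Wt lists.

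**Figure D2:**
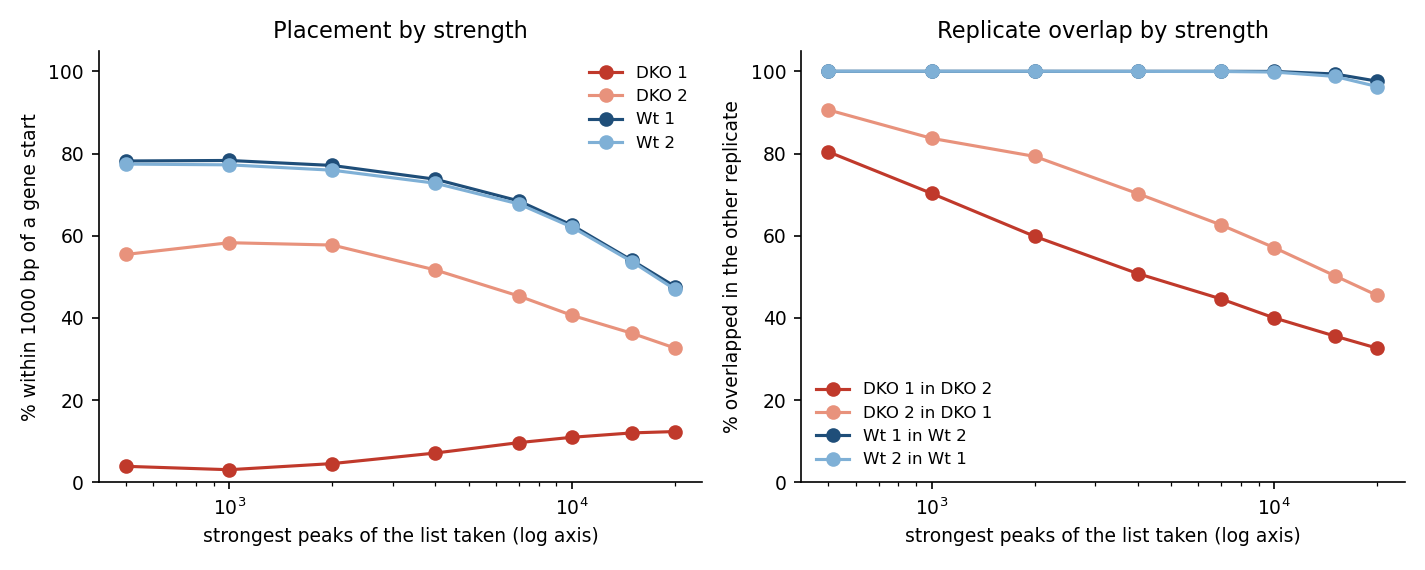
The left panel gives the percent of peaks within 1000 bp of a gene start and the right panel the percent overlapped by the other library of the group, each over the strongest peaks of a list from 500 to 20000 (log axis), one line per library. Both Wt lines run together in each panel, and DKO 1 starts at 3.92% at gene starts where DKO 2 starts at 55.5%.

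Overlapping peaks of the 4 lists were joined into 106425 regions. A region with a peak in both Wt lists and in neither DKO list is called lost here, and one with the reverse gained; the words describe lists only, since a missing peak does not show closed chromatin. Of all regions 25301 were lost (23.8%), 5305 were gained (4.98%) and 3772 were in all 4 lists (3.54%). Another 64789 regions were in a single list, of which DKO 1 alone gave 27552. Because peaks were called in each library alone, no test across regions could be made.

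The 3 kinds of region differed in place and strength. Lost regions had a median width of 224 bp and 26.0% lay at gene starts, gained regions 316 bp and 5.39%, and regions in all 4 lists 789 bp and 72.4%. Median fold enrichment in lost regions was 5.19 in Wt 1 and 5.39 in Wt 2, and in gained regions 4.27 in DKO 1 and 3.87 in DKO 2. Regions in all 4 lists gave 4.05 in DKO 1, 4.36 in DKO 2, 7.94 in Wt 1 and 8.06 in Wt 2. The same regions thus had lower fold enrichment in both DKO lists than in both Wt lists, over backgrounds that may differ as described above. The counts rose with any library left out, a direction set by the definition, since fewer lists then had to match. Lost regions numbered 43245 without Wt 1 and 38053 without Wt 2. Without DKO 1 there were 13995 gained regions and 7395 in every remaining list, and without DKO 2 there were 33172 gained regions.

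**Figure D3:**
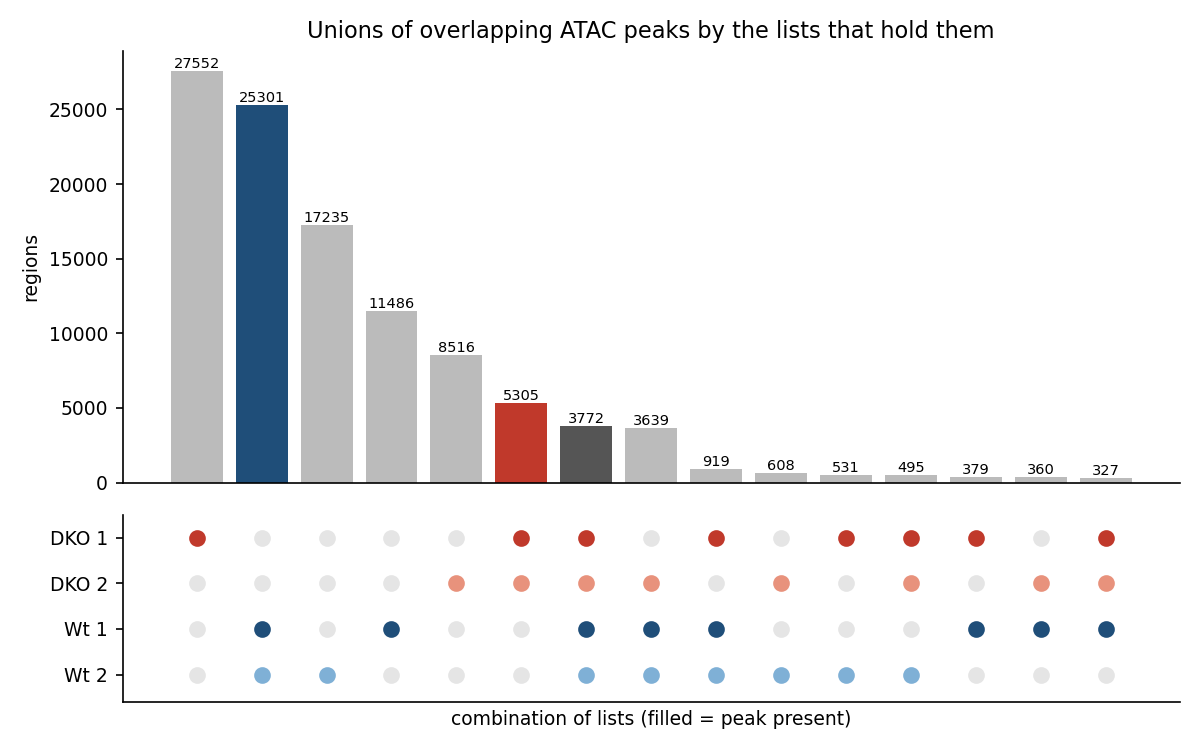
Bars count the regions for each combination of lists that hold a peak, shown by filled dots under each bar for DKO 1, DKO 2, Wt 1 and Wt 2. Regions in both Wt lists alone (25301, blue) outnumber those in both DKO lists alone (5305, red) and those in all 4 lists (3772, dark grey), and DKO 1 alone gives the highest bar at 27552.

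Whether a Wt region was listed in DKO went with its strength and place. Of the 33631 regions in both Wt lists, 13.9% were also in DKO 1, 22.0% in DKO 2, and 75.2% in neither. When these regions were ordered by strength in Wt and cut into 10 groups of equal size, 88.7% of the weakest group and 22.0% of the strongest were lost. In the strongest group 48.1% were in DKO 1 and 75.7% in DKO 2. At gene starts 53.8% of 11863 regions were lost, and away from starts 87.6% of 20691.

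A Cdx2 ChIP-seq peak overlapped 6.12% of lost regions (exact binomial 95% interval 5.83 to 6.42, which covers counting error only), 3.10% of those in all 4 lists and 0.0943% of gained ones, beside 2.25% of all regions. The 2.25% includes regions without a Wt peak, such as those in DKO 1 alone (0.0363%) or DKO 2 alone (0.188%), and the gained share lay between these. Regions in both Wt lists and 1 DKO list gave 3.90% with DKO 2 and 1.85% with DKO 1. That ChIP library was 1 sample tagged as untreated, and its 5100 peaks were called on their own. Among regions in both Wt lists, cut by Wt strength as above, the share was 3.09% in the weakest group, 7.70% in the seventh and 4.85% in the strongest.

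The 6 lost regions that ranked highest by -log10 q lay at gene starts in 5 cases. The start of Pot1a, which encodes a protein of telomere ends, ranked first, with fold enrichments of 17.1 in Wt 1 and 15.9 in Wt 2 (chr6:25809011-25809527). The start of Dusp23, a dual-specificity phosphatase, gave 12.6 in Wt 1 and 11.02 in Wt 2 and also held a Cdx2 peak (chr1:172632441-172633302). The others at starts were Snhg5, a host gene of small nucleolar RNAs, with 12.3 and 12.2; Parp2, a DNA repair polymerase, with 13.1 and 13.4; and Kif18a, a mitotic kinesin, with 12.3 and 13.3. The last lay inside Trim30a, a TRIM family gene, 18.0 kb from its start, at 94 bp wide and with 15.0 and 17.3. In the authors' deposited table of RNA, which compares other libraries of the same 2 strains, Snhg5 was higher in DKO (log2 fold change 1.66, adjusted p = 2.85e-06), as was Kif18a (1.62, adjusted p = 0.00820). The table gave -0.40 for Pot1a (adjusted p = 0.451).

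The 6 gained regions that ranked highest lay away from gene starts. The first lay inside Sik3, a salt-inducible kinase, 95.5 kb from the start of Apoa1 (chr9:46132717-46133119), with fold enrichments of 11.1 in DKO 1 and 12.3 in DKO 2. The second lay 26.3 kb from Aldoart2, with 11.1 and 8.32 (chr12:55538391-55538890). The third was on chromosome X, 108 kb from Pls3, an actin bundling protein, with 11.5 and 10.7. The next lay 28.9 kb from Ypel5 with 8.93 and 6.86, inside Myo16 31.4 kb from its start with 9.51 and 7.29, and 5.07 kb from Mras, a small GTPase, with 7.34 and 5.85. None of the 6 held a Cdx2 peak. Of these nearest genes, the authors' deposited RNA table gave Ypel5 as higher in DKO (0.90, adjusted p = 0.00144) and Pls3 as lower (-1.57, adjusted p = 0.000100).

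Gene starts were open less widely in DKO. A peak lay at 4936 of the 26794 starts in DKO 1 (18.4%), 6949 in DKO 2 (25.9%), 12350 in Wt 1 (46.1%) and 12911 in Wt 2 (48.2%). The median fold enrichment of these starts was 3.91, 4.03, 6.88 and 6.89. Of all genes, 5019 had a lost start (18.7%), 173 a gained one (0.646%), 3410 a start open in all 4 lists (12.7%) and 12488 one open in none (46.6%). Lost starts numbered 7842 without DKO 2, and gained starts 415 without DKO 1, 652 without DKO 2 and 272 without Wt 2. Such counts cannot fall when a library is left out, since fewer lists have to match. Of the 11849 genes open in both Wt lists, 42.4% were lost.

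Housekeeping genes, which every cell uses, give the scale for the lists that follow. Their starts were open at 12 of 12 in each Wt library, 2 of 12 in DKO 1 and 4 of 12 in DKO 2. The 7 lost starts were those of Gapdh, Tbp, B2m, Rpl13a, Polr2a, Rplp0 and Gusb. Tbp, the TATA-binding protein, had fold enrichments of 10.9 in Wt 1 and 11.8 in Wt 2 and no DKO peak, while the authors' deposited RNA table gave it 0.31 (adjusted p = 0.531). Gapdh, a glycolysis enzyme, had 5.64 and 5.96, and RNA at -0.04 (adjusted p = 0.898). Eef1a1 was open in all, at 3.64 in DKO 1, 5.08 in DKO 2, 7.83 in Wt 1 and 8.57 in Wt 2. Lost starts thus included genes whose RNA was not called changed, and the lack of DKO peaks reached 58.3% of the housekeeping starts open in both Wt lists. Its part in the counts of every list below was not tested.

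Genes of absorptive colonocytes, the cells that take up salt and water, had starts open at 1 of 18 in DKO 1, 2 of 18 in DKO 2, 13 in Wt 1 and 16 in Wt 2. Lost starts numbered 11 (61.1%, beside 18.7% of all genes), which is 84.6% of the 13 open in both Wt lists. Slc26a3 had 4.80 in Wt 1 and 5.49 in Wt 2, with a Cdx2 peak at the start. Aqp8, a water channel, had 4.29 and 5.35 and Slc51b, a subunit of the basolateral bile acid exporter, 4.88 and 5.95, each also with a Cdx2 peak at the start. Slc20a1, a phosphate transporter, was open in all 4 lists, at 4.03, 4.60, 9.07 and 8.67. RNA in the authors' deposited table was lower in DKO for Slc26a3 (-1.86, adjusted p = 1.60e-12) and Aqp8 (-2.21, adjusted p = 2.46e-21), and Slc51b stood at 0.25 (adjusted p = 0.742). The lost count was 11 without DKO 1 and 12 without DKO 2, settings in which it cannot fall. It was 6 among peaks with -log10 q of at least 5 and 4 among the 20000 strongest peaks of each list. Housekeeping starts gave 8, 10, 11 and 9 lost under the same settings.

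Among intestinal identity genes, 3 of 17 starts were open in each DKO library, 12 in Wt 1 and 13 in Wt 2. Lost starts numbered 7 (41.2%, beside 18.7% of all genes). That is 63.6% of the 11 open in both Wt lists, beside 58.3% for housekeeping genes and 42.4% for all genes. The Cdx2 start had 4.23 in Wt 1 and 5.42 in Wt 2 and no DKO peak. Its wider locus kept other peaks: a downstream region at chr5:147293076-147293586 was in all 4 lists, at 4.36 in DKO 1, 3.87 in DKO 2, 5.68 in Wt 1 and 4.14 in Wt 2. Cdx2 RNA in the authors' deposited table was -0.27 (adjusted p = 0.301), which does not check the labels, since the part of the gene that is cut is not given in the sources used here. Cdx1, whose start was not in the table used, had 4 regions within 10 kb in both Wt lists and no DKO peak. Although both strains are labelled Cdx1-/-, the authors' deposited table lists Cdx1 RNA at a mean normalized count of 2595, lower in DKO (-1.06, adjusted p = 2.08e-05); which part of the gene the allele lacks is not stated, so this goes against a reading of the label as no Cdx1 RNA and checks nothing further. Hnf4a had 5.63 and 6.18 at its first start, under a Cdx2 peak, and Elf3, an epithelial ETS factor, had 5.14 and 5.41. RNA of both was lower in DKO in the authors' deposited table, at -1.09 (adjusted p = 2.10e-05) and -0.96 (adjusted p = 3.55e-07). Klf4, a zinc finger factor of differentiating epithelium, was open in all 4 lists, at 3.04, 3.28, 5.53 and 5.69.

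Goblet cells make mucus. Of 8 goblet genes with a start, 1 was open in DKO 1, 2 in DKO 2 and 5 in each Wt library. Lost starts numbered 3 (37.5%, beside 18.7% of all genes), which is 60% of those open in both Wt lists, beside 58.3% for housekeeping genes. Fcgbp had 6.63 in Wt 1 and 6.07 in Wt 2, and Agr2, a disulfide isomerase needed for mucin folding, 6.48 and 5.93. Klk1, a kallikrein protease, had 3.65 and 5.45. Atoh1, the factor that sets the secretory lineage, was open in all 4 lists at 4.24, 5.18, 5.79 and 5.93, while its RNA was -2.38 in the authors' deposited table (adjusted p = 5.65e-24). Muc2, the main gel-forming mucin, had no peak at its start in any library, and its RNA was -4.95 (adjusted p = 1.65e-127).

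Inflammasome genes encode the sensors and enzymes that release interleukin-1 family cytokines. Their starts were open at 2 of 21 in each DKO library, 13 in Wt 1 and 17 in Wt 2. Lost starts numbered 10 (47.6%, beside 18.7% of all genes), which is 76.9% of those open in both Wt lists, beside 58.3% for housekeeping genes. The start of 1 gene, Nek7, a kinase that binds NLRP3, was open in all 4. At Trim31 the peak over the start had 5.63 in Wt 1 and 4.55 in Wt 2 (chr17:36897867-36898134). A second region just upstream, chr17:36897072-36897426, had 5.33 and 5.15 and held a Cdx2 peak. DKO 1 and DKO 2 had no peak at either, and Trim31 RNA was -1.48 in the authors' deposited table (adjusted p = 0.00135). Nlrp3 had no peak at its start in any library. Its locus held only single-library peaks, 2 of DKO 1 and 1 of DKO 2, and the authors' deposited table gave its RNA 1.88 (adjusted p = 0.0578). Nlrp6, a sensor of the gut epithelium, had 4.08 and 3.70 in Wt and RNA at -2.68 (adjusted p = 6.29e-42). The lost count was 11 without DKO 1 and 11 without DKO 2, settings in which it cannot fall, and 5 among the 20000 strongest peaks. It was 8 among peaks with -log10 q of at least 5. Housekeeping starts, 12 in all, gave 8, 10, 9 and 11 lost in that order.

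AP-1 and immediate early genes answer signals within minutes. Their starts were open at 14 of 14 in each Wt library, 1 in DKO 1 and 5 in DKO 2. Lost starts numbered 9 (64.3%, beside 18.7% of all genes and 58.3% of housekeeping genes, whose starts were also all open in Wt). Fos had 4.96 and 5.26 in Wt, Fosb 4.12 and 4.34 and Junb 3.37 and 2.85. Dusp1, a phosphatase that turns off MAP kinases, was open in all 4 lists at 3.39, 3.79, 5.31 and 4.80. RNA ran the other way for several genes of this list: the authors' deposited table called 6 higher in DKO and 0 lower of the 13 with a start and RNA, beside 20.3% higher and 19.4% lower of all genes with a start, with Junb at 0.95 (adjusted p = 3.77e-06). The 6 are Fosb, Junb, Ier3 and Nr4a1 with lost starts, Dusp1, and Klf6, whose start was open in DKO 2. RNA of Fos, Jund, Maff and Btg2, also with lost starts, was not called changed.

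NF-kB cytokines and chemokines recruit leukocytes. Starts were open at 3 of 14 in DKO 1, 5 in DKO 2 and 12 in each Wt library, with 3 open in all 4 lists. Lost starts numbered 7 (50%, beside 18.7% of all genes). That is 58.3% of the 12 open in both Wt lists, the same share as for housekeeping genes. Cxcl1, a neutrophil attractant, had 8.11 in Wt 1 and 7.0 in Wt 2 and no DKO peak, and its RNA was 4.18 in the authors' deposited table (adjusted p = 0.000646). Ccl20 had 4.43 and 6.43, and Csf1, the macrophage growth factor, had 5.75 and 6.82. Cxcl2 was open in all 4 lists at 3.71, 3.96, 4.81 and 6.74, with RNA at 5.82 (adjusted p = 2.30e-08). Of this list's 12 genes with a start and RNA, 10 were called higher and 0 lower, beside 20.3% and 19.4% of all genes with a start. The lost count was 3 among peaks with -log10 q of at least 5 and 2 among the 20000 strongest peaks of each list. Housekeeping starts gave 11 and 9 lost under these settings.

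Of 22 stomach genes listed, 13 had a start in the table of starts, with no gained start among them. The others, such as Tff1, Foxq1 and Gata4, could not be read. Of 13 with a start, 2 were open in DKO 1, 2 in DKO 2, 4 in Wt 1 and 3 in Wt 2, with 0 lost and 9 open in none. Gkn1 and Gkn2, secreted gastrokines of the stomach surface, had no start peak in any library, although the authors' deposited RNA table gave them 7.57 (adjusted p = 6.79e-05) and 9.34 (adjusted p = 7.79e-08). Sox2, a foregut factor, was open in all 4 lists, at 4.86 in DKO 1, 4.20 in DKO 2, 4.16 in Wt 1 and 7.39 in Wt 2. No list had a gained start, beside 0.646% of all genes. With that share over all genes, a count of 0 does not set the stomach list apart.

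Crypt stem cell and Wnt target genes had 2 of 12 starts open in DKO 1, 4 in DKO 2 and 10 in each Wt library. Lost starts numbered 5 (41.7%, beside 18.7% of all genes). That is 50% of those open in both Wt lists, beside 58.3% for housekeeping genes. Among the 5 was Ascl2, a stem cell factor, at 3.96 in Wt 1 and 3.34 in Wt 2. Prom1, a membrane protein, was open in all 4 lists at 3.08, 3.41, 3.03 and 3.66. Regeneration and YAP-linked genes had 3 of 9 open in each DKO library and 7 in each Wt library. Anxa1 and Ccn1 were lost there, at 5.62 and 7.42 and at 6.28 and 5.84, while their RNA was higher, at 3.74 (adjusted p = 1.45e-41) and 2.13 (adjusted p = 2.39e-08) in the authors' deposited table. Antimicrobial genes had 1 of 15 open in DKO 1, 0 in DKO 2, 7 in Wt 1 and 8 in Wt 2. Stratified squamous genes had 0 of 9 open in DKO 1 and DKO 2 and 3 in each Wt library. Enteroendocrine genes had 2 and 0 of 14 in DKO and 6 and 4 in Wt, and tuft cell genes 1 and 1 of 11 in DKO and 1 and 3 in Wt.

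Few blood cell markers had an open start, in lists of 5 to 9 genes. Over all genes, 18.4% were open in DKO 1, 25.9% in DKO 2, 46.1% in Wt 1 and 48.2% in Wt 2. Whether counts from lists this short differ from those shares was not tested. Starts of B and plasma cell genes were open at 0 of 5 in DKO 1, 0 in DKO 2, 1 in Wt 1 and 0 in Wt 2, of T cell genes at 1, 1, 0 and 1 of 9, and of myeloid genes at 0, 0, 1 and 0 of 7. Starts of smooth muscle, fibroblast and endothelium genes were open at 1, 2, 2 and 4 of 8, and of enteric neuron and glia genes at 2, 2, 1 and 5 of 5. Genes of other tissues were open at 0, 0, 1 and 1 of 8. Of the intestinal identity starts, 12 and 13 of 17 were open in Wt 1 and Wt 2, among them Vil1, the brush border villin, at 6.30 and 6.13, and Gpa33, an intestinal surface antigen, at 7.73 and 8.72. Isx, Fabp2 and Alpi of the same list, Muc2, Spdef and Ang4 of the goblet list, 8 of 14 enteroendocrine starts and 8 of 11 tuft cell starts were open in no library. In DKO, Vil1 had a peak of 3.03 in DKO 2 only, and Gpa33 had 2.67 in DKO 1 and 3.79 in DKO 2.

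**Figure D4:**
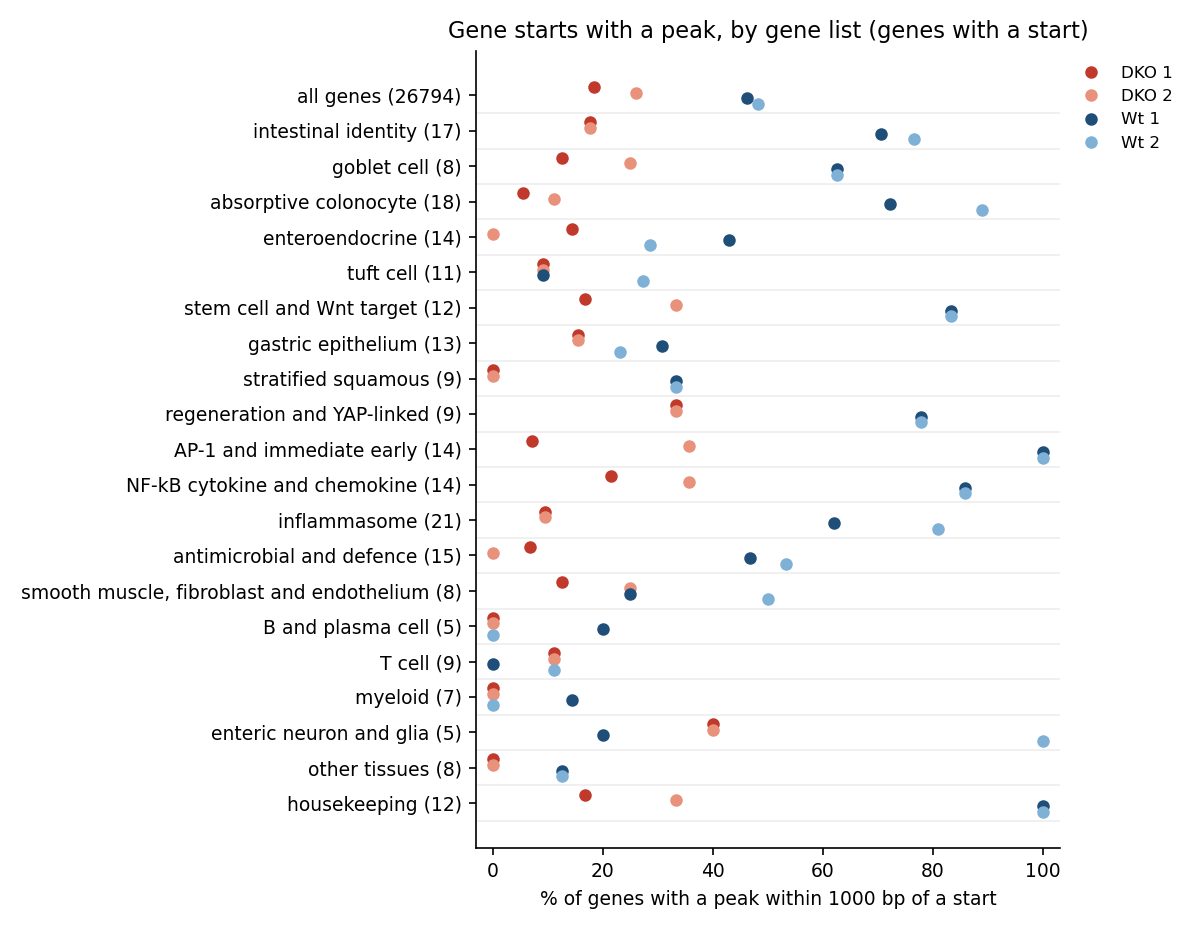
Points give the percent of genes in each list with a peak within 1000 bp of a start, one point per library, with the number of genes that have a start in brackets. Both Wt libraries lie to the right of both DKO libraries for all genes and for housekeeping genes (12 of 12 against 2 and 4) as well as for the intestinal identity, goblet, absorptive, AP-1, NF-kB and inflammasome lists, and the lists of blood cells have at most 1 open gene in each library.

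The median RNA change of genes with lost starts lay near that of all genes. In the authors' deposited table, 12067 genes had a start here, with a median log2 fold change of -0.02; 20.3% were called higher in DKO and 19.4% lower at their adjusted p under 0.05. The 3943 genes with a lost start had a median of -0.10, with 15.6% higher and 21.2% lower. The 2848 genes open in all 4 lists had a median of 0.22, with 31.2% higher and 13.1% lower. The 167 lost starts with a Cdx2 peak had a median of -0.21, with 9.58% higher and 28.7% lower. Medians of lost starts and of those open in all 4 differed by -0.32, from -0.328 to -0.224 when 1 ATAC library was left out. RNA and ATAC libraries were different samples. In the same table all 8 smooth muscle, fibroblast and endothelium genes with a start were lower in DKO, with a median of -5.67, and the part of such cells in these values was not tested.

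**Figure D5:**
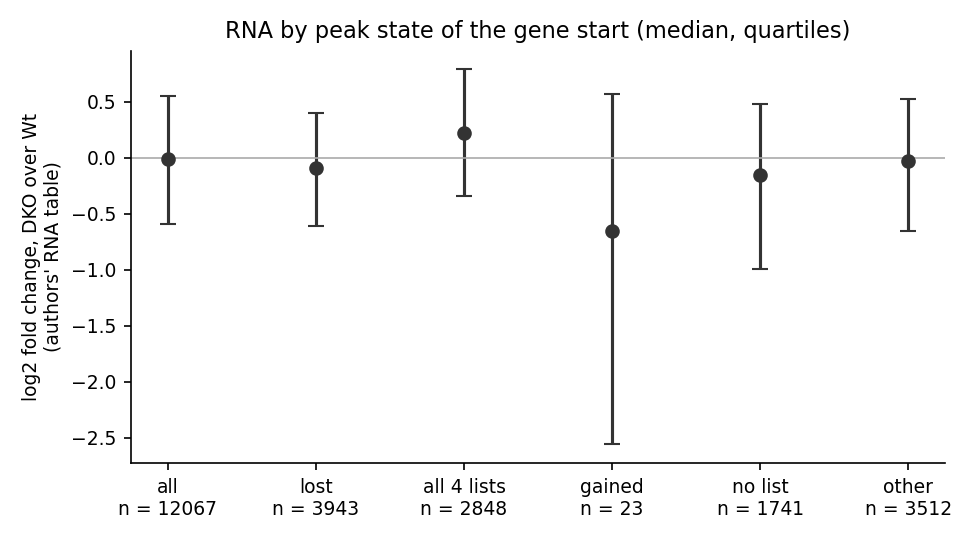
Points give the median log2 fold change of RNA, DKO over Wt, from the authors' table, and bars the quartiles, for genes grouped by the peak state of their start (n below each). Medians run from 0.22 for starts open in all 4 lists to -0.66 for the 23 gained starts with RNA, and the quartiles of all groups overlap.

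Of the 173 gained starts, 23 had RNA in the authors' deposited table. Of the 23, 2 were higher and 8 lower, beside 20.3% and 19.4% of all genes with a start. The 2 were Scd3, at 6.53 (adjusted p = 1.83e-06), whose start had fold enrichments of 4.94 in DKO 1 and 4.02 in DKO 2, and Clec2i, a C-type lectin, at 2.97 (adjusted p = 0.00311) with 5.40 and 3.66. Among the 8, Cavin2, a caveolar protein, was at -3.24 (adjusted p = 1.72e-05) with 4.35 and 4.21. The 23 genes had a median mean normalized count of 21.2, beside 364 for all genes with a start, so their fold changes rest on low counts. Names in this paragraph were chosen after their values were seen.

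The sequence before the start also differed between the kinds of start. Over the 250 bases upstream, the median number of CpG dinucleotides was 22 for starts open in all 4 lists, 13 for lost starts, 4 for gained starts and 2 for starts open in none, beside 6 for all 32619 starts. The median share of G and C was 66.0%, 57.2%, 51.6% and 46.4% in that order, beside 52.4%. CNATAAA on either strand was found before 4.40% of starts open in all 4 lists, 7.39% of lost, 10.9% of gained and 13.2% of those open in none, beside 9.76% of all. The ETS motif CCGGAAG was before 12.0%, 12.6%, 1.99% and 2.21%, beside 6.96% of all starts. The AP-1 motif TGANTCA was before 3.19%, 5.47%, 6.97% and 9.01%, beside 6.78%, and the HNF4 motif CAAAGTCC before 1.00%, 1.43%, 1.49% and 1.15%, beside 1.20%. These classes, counted per start and not per gene, held 3888, 6087, 201 and 15699 starts in that order. The shares for gained starts thus rest on few: 22 with CNATAAA, 4 with the ETS motif, 14 with AP-1 and 3 with HNF4. Each motif was searched on both strands, and their shares move with base composition.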

How the data were processed

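The 4 ATAC-seq peak lists (2 DKO, 2 Wt) were used as deposited. Peaks had been called per library, per the peak names in the files; the submitters' processing notes list MACS2, BWA, Bowtie2, fastp, Salmon 1.3.0 and DESeq2, with mm10 and GRCm38 as builds and no role for any of them. Settings of the peak caller: not given in the sources used here. Each deposited peak has the authors' fold enrichment (a ratio), its -log10 p and -log10 q, and a score that restates the -log10 q. The authors' deposited RNA table gives a mean normalized signal, log2 fold changes and adjusted p-values for DKO against Wt.

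Peaks were compared with Python 3.11.15, numpy 2.4.6, pandas 2.3.3 and scipy 1.17.1, with steps checked on simulated peaks. Lists overlap where they share at least 1 bp, and a start is open where a peak overlaps 1000 bp on either side. Of 334 listed genes, 227 had a RefSeq start (GRCm38.p6, 19 chromosomes). Library values were compared with exact permutation tests. Depth is unknown, so precision is limited by 2 libraries per group. Alternatives were stricter q, matched peak number, other windows and overlaps, a replicate block and each library left out.

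The members, gene lists and tests were chosen with earlier results of these data known. Named regions are the 6 lost and 6 gained with the highest mean within-list percentile of -log10 q; named genes are Cdx2, Cdx1, Trim31, Nlrp3, then in list order up to 3 with lost and 2 with gained starts and 1 open in all 4 per list, with further names added after their values were seen.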

Additional observations from a re-analysis of the deposited data

How the results depend on the processing

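Of 41 values under a changed setting, 21 stayed, 19 moved and 1 reversed. Staying meant within the spread between libraries for differences, 1.5 times for counts and expression, and the binomial interval for the Cdx2 share. The replicate block is among the 21, with the same mean difference by construction. With 1 library left out, 40 of 52 stayed and 12 moved. A difference of group means cannot leave that spread when 1 of 2 libraries is dropped, so all these stayed by construction. The share at starts is among them, although its difference went from -8.97 to -0.314 points without DKO 1. Among peaks with -log10 q of at least 5, covered length differed by -6.73 Mb and replicate overlap by -55.6 percentage points (DKO minus Wt), and there were 16856 lost, 683 gained and 405 regions in all 4 lists, with 20 gained starts. Among the 20000 strongest peaks per list, the width difference reversed to -95 bp, covered length was -2.21 Mb, fold enrichment -2.72, -log10 q -6.66, share at starts -24.8 and replicate overlap -49.8 percentage points, with 9957 lost regions, 1775 in all 4 lists, a Cdx2 peak in 7.48% of lost regions and 267 gained starts. That share was 6.78% with windows around summits and 5.58% with overlap of at least 50% of the shorter peak. Windows of 250 bp and 2500 bp gave 88 and 287 gained starts. Of the 5019 lost starts, 3801 were among 7486 at the stricter q, and 3286 among 3858 at matched number. Counts of lost starts for 7 gene lists under these settings, and without either DKO library, were added after the data were seen, are not among the 41 and 52 values, and stand beside the lists they moved. The cause of these moves was not tested, beyond the fewer peaks each setting keeps.

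With each library left out in turn, the difference ranged from -27087 to -10947 in peak number, 29 to 76 bp in width, -4.83 to -3.10 Mb covered, -1.14 to -1.01 in fold enrichment, -1.87 to -1.54 in -log10 q and -17.6 to -0.314 points at starts. There were 26233 to 43245 lost regions, 5650 to 33172 gained, 4064 to 7395 in all lists, 4.28 to 5.97% of lost regions with a Cdx2 peak, 5386 to 7842 lost starts and 218 to 652 gained starts. The counts of regions and starts all rose, a direction set by their definition, since fewer lists then had to match. With the replicate block, the peak number differed by -19017 (exact p = 0.5, the smallest 2 pairs allow), with pairs at -8058 and -29976. The numbers were not shown to pair the libraries: the mean Jaccard index was 0.109 for the same number and 0.110 for the other.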

Other observations

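Chromosome Y, outside the chromosomes compared, held 0 peaks in DKO 1 and DKO 2, 4 in Wt 1 and 6 in Wt 2. In the authors' deposited RNA table, from other libraries, the Y-linked genes Ddx3y and Eif2s3y stood at log2 fold changes of 0.10 and 0.10 and Uty at 0.53, with adjusted p of 0.801, 0.819 and 0.446.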
